A study of Mus musculus with 20 samples.

Results

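The genes of translation initiation and elongation factors were defined by their symbols, as all genes of the count table whose symbol begins with Eif or Eef and a digit, without the eIF2 kinases (Eif2ak). Of the 21078 genes in the table, 66 had such a symbol, and 62 of these had a mean of at least 5 counts over the 20 mice, a minimum that 13124 genes of the table met. The 4 genes below it, Eif4ebp3, Eif3s6-ps1, Eif3s6-ps2 and Eif5al3-ps, had mean counts between 0.25 and 3.4. Of the 62 genes, 60 were protein-coding in the annotation, Eif4a-ps4 was a pseudogene and Eif2c5 a processed transcript. Eif2c1 to Eif2c4 are older symbols of the Argonaute genes, whose proteins carry microRNAs to their targets and are not initiation factors. They were kept because the rule takes them in, and they are described apart from the factors.

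Polyadenylated RNA was sequenced from aortas of adult male wildtype C57BL/6 mice, 10 to 12 weeks old, taken 4 h after total-body exposure. The 10 doses, of 0, 5, 10, 25, 50, 75, 100, 125, 150 and 200 cGy, were given as high energy protons to 10 mice and as gamma rays from a cesium source to 10 others. Each type had 1 mouse at each dose, including 1 at 0 cGy that was restrained in the same enclosures, so that no dose had a replicate within a type. Slope p-values rest on the scatter of all 20 mice around 2 dose lines, 1 per type, and a mouse of one type can therefore move a call in the other. The question put to the translation factors was whether their transcripts moved with dose after either type of radiation, and whether the types differed.

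In eukaryotes the small ribosomal subunit is loaded with eIF2, GTP and the initiator tRNA, helped by eIF1, eIF1A and eIF3, and is brought to the capped end of the mRNA by the eIF4 factors. The guanine nucleotide of eIF2 is renewed by eIF2B, eIF5 and eIF5B drive the steps that end in subunit joining, and eIF4E-binding proteins hold the cap-binding protein back when mTOR signalling is low. During elongation eEF1A delivers the aminoacylated tRNAs, eEF2 moves the ribosome along, and eIF5A with its hypusine side chain helps at stalling sequences. Control of these factors is known mostly at the level of phosphorylation, which RNA counts do not measure.

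The libraries had been resampled to nearly equal size, with 6051657 to 6058006 counts per mouse, and a count of 3, or 4.95e-05% of a library, was taken as the floor of detection, a limit of counting error only. In each mouse the deviation of gene counts from their means was compared with the GC content of the exons over 9817 genes. This correlation lay between -0.4 and -0.351 in the 4 mice at 150 and 200 cGy and between -0.0094 and 0.274 in the 16 mice at 0 to 125 cGy, so that base composition and high dose cannot be told apart in these libraries. The proton mouse at 75 cGy stood apart in its tissue markers. Its 5 smooth muscle markers (Acta2, Myh11, Tagln, Cnn1 and Smtn) summed to 25899 CPM (counts scaled to equal library totals) against 38361 to 55336 in the other 19 mice. The summed markers of brown fat were at 2265 against 79.9 to 813, those of white fat at 1241 against 71.9 to 446, and those of cardiac muscle at 2330 against 5.44 to 37.7. Endothelial and fibroblast markers were present in every mouse, but their sums varied between mice, from 348 to 1257 and from 1509 to 4930 CPM. Summed macrophage markers ranged from 16.6 to 119 CPM, and the summed lymphocyte and neuronal markers did not exceed 5.72 and 1.8 CPM. Of the 62 genes, 17 had a higher and 9 a lower count in that mouse than in any of the other 19, and results that change without it are given so.

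A dose slope was fitted for each gene by edgeR's quasi-likelihood test with a line for each radiation type, and is given as log2 change per 100 cGy with its standard error. Adjusted p-values are by Benjamini-Hochberg over all 13124 genes, and a slope was called at 0.1 or below. A gene with a called slope above 0 is said to have increased and one below 0 to have decreased. Because the aorta was sequenced as bulk tissue, fewer cells of a type and less RNA per cell cannot be told apart in any value below.

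A called slope was found for 6 members, Eif4b, Eif3a, Eif4ebp2 and Eif4h among the factors and Eif2c1 and Eif2c2 among the Argonaute genes. The 250 bases before the annotated 5′ end, which lie outside the annotated gene, are shown for both initiation factors that increased and both that decreased. They are also shown for Eif2c2, which had the steepest slope of all members. All were read from mm9 on the strand of the gene. Capitals mark matches to 4 motifs searched on both strands, the E-box CACGTG, the ETS motif CCGGAAG, the GC box GGGCGG and the CCAAT box. The GC boxes of Eif4h overlap each other.
Eif4b, chr15:101903954-101904203, plus strand: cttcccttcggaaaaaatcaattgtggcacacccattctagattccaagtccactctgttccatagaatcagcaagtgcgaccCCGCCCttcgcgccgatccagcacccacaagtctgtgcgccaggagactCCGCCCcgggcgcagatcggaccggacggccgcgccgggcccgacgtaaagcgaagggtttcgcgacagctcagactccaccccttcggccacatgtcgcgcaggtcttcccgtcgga
Eif3a, chr19:60866597-60866846, minus strand: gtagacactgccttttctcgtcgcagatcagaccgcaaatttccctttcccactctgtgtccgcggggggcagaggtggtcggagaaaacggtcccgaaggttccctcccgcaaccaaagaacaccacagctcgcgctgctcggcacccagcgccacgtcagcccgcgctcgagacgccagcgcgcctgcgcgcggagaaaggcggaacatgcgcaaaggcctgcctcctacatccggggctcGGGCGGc
Eif4ebp2, chr10:60915418-60915667, minus strand: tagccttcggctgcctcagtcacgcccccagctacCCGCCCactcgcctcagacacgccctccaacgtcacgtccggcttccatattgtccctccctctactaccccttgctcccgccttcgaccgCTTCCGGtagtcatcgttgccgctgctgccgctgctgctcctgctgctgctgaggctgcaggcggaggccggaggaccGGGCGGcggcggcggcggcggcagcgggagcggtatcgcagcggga
Eif4h, chr5:135115219-135115468, minus strand: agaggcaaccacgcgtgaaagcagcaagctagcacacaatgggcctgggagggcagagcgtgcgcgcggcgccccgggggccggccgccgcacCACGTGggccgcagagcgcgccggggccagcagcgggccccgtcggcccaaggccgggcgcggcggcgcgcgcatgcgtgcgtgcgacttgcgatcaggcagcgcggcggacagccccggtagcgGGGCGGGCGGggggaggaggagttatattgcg
Eif2c2, chr15:73015378-73015627, minus strand: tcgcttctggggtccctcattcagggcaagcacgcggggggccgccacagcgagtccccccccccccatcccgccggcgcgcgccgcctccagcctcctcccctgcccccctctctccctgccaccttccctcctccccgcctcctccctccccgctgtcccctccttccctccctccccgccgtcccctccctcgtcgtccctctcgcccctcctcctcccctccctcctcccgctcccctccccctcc
The window of Eif4b held 2 GC boxes, that of Eif3a 1, that of Eif4ebp2 2 with 1 ETS motif, that of Eif4h 2 with 1 E-box, and that of Eif2c2 none of the 4 motifs. GC boxes were in 67.7% of the 62 windows and in 54.8% of the windows of all tested genes. ETS motifs were in 21% of the 62 windows against 12.2% of all, E-boxes in 12.9% against 8.06%, and CCAAT boxes in 29% against 35%. The windows had a median GC content of 61.6%, close to the 58.8% of all tested genes. A match of letters describes these windows and does not show a bound site.

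Levels were compared between genes as CPM divided by exon length in kb. Elongation factors led the list. Eef1a1, which encodes the protein that brings aminoacylated tRNA to the ribosome, stood at 1731 ± 125 (SD, n = 20 mice) and took 22533 to 29979 counts in a mouse. Eef2, the translocase, followed at 512 ± 27.6, so that Eef1a1 stood 3.38-fold above it. Eif1, which guards start codon selection, was next at 173 ± 13.7, ahead of Eif4g2, an eIF4G relative that does not bind the cap-binding protein, at 123 ± 11 and Eif5a at 119 ± 7.82. The means of Eif4g2 and Eif5a lay within 1 SD of each other. All 62 genes together took between 1.29% and 1.48% of a library.

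**Figure D1:**
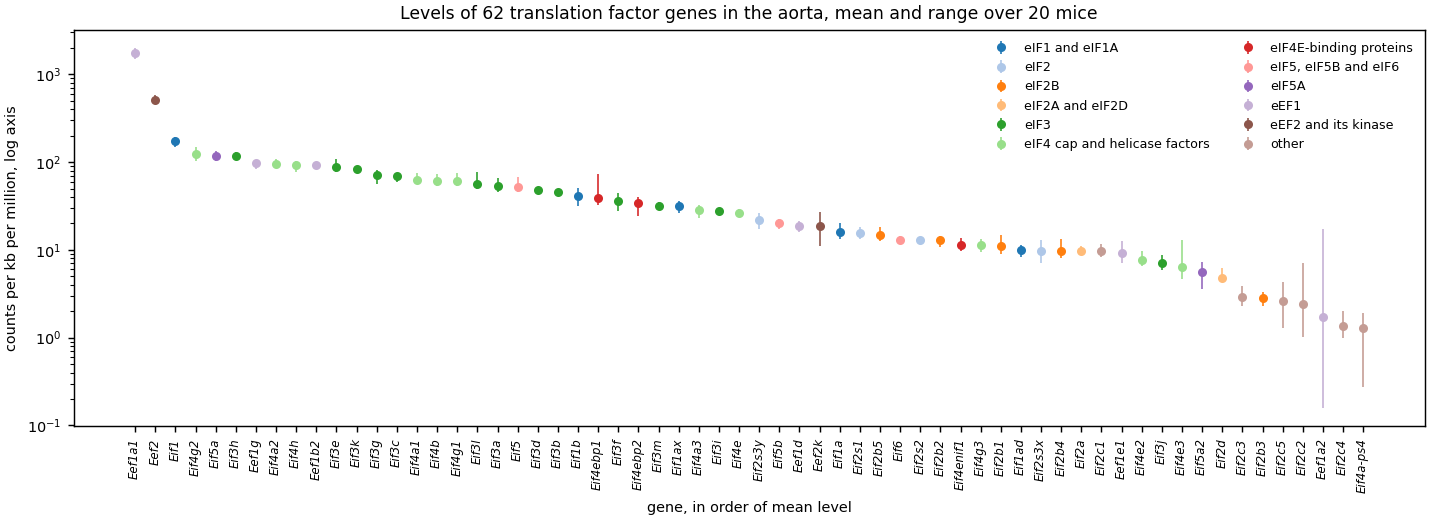
Mean level of each of the 62 genes in CPM divided by exon length in kb, on a log axis, in order of level and coloured by factor group, with bars from the lowest to the highest of 20 mice. Eef1a1 and Eef2 stand above all others, and the longest bars are those of Eef1a2 and Eif2c2, where 1 and 4 mice, respectively, stand apart.

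Levels within 1 complex were unequal. The 13 subunit genes of eIF3 ranged 16.8-fold, from Eif3j at 7.06 ± 0.695 to Eif3h at 118 ± 6.14. Among paralogues, Eif5a stood 21.4-fold above Eif5a2 per length, and the Y-linked Eif2s3y 2.22-fold above the X-linked Eif2s3x, both of which encode the gamma subunit of eIF2. Most of the genes were steady from mouse to mouse. The SD of log2(CPM + 1) over the 20 mice had a median of 0.124 and was under 0.15 for 45 of the 62 genes, and was highest for Eef1a2 (0.998) and Eif2c2 (0.850). Exons of 6 members overlap other annotated genes on the same strand (for Eef1a1 a microRNA, for Eif4g2, Eif4a1 and Eif4a2 small nucleolar RNAs, for Eif4e3 Foxp1, and for Eef2k a second annotated Eef2k), so that their counts could hold reads of these.

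After proton radiation 1 of the 62 genes, Eif2c2, increased and none decreased by the edgeR slope, where 1.6% of all tested genes increased and 0.16% decreased. After gamma radiation 4 genes increased (Eif2c2, Eif4b, Eif3a and Eif2c1) and 2 decreased (Eif4ebp2 and Eif4h), which is 6.45% and 3.23% of the members against 5.44% and 2.21% of all tested genes. The shares of called members were thus near those of the genes at large. They include the Eif2c symbols and Eif4a-ps4. Of the 56 genes without these, 0 increased after proton radiation, and 2 increased and 2 decreased after gamma radiation. Of the 56 genes 9 for proton and 15 for gamma radiation had an unadjusted p under 0.05 by the edgeR slope. Their median slopes were -0.001 and 0.036. At an unadjusted p under 0.05 there were 13 members for proton and 18 for gamma radiation, which is 21% and 29% of the members against 13.3% and 18.4% of all tested genes. Slopes lay on both sides of 0, with 33 of 62 above it for proton and 39 for gamma radiation. The median slope of the 62 genes was 0.01 for proton and 0.04 for gamma radiation, against 0.00 and 0.01 over all tested genes. It turned to -0.00 for proton radiation without TMM scaling and to -0.03 for gamma radiation with a correction for GC content. The medians over all tested genes turned as well, to -0.01 and -0.03 in these fits.

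**Figure D2:**
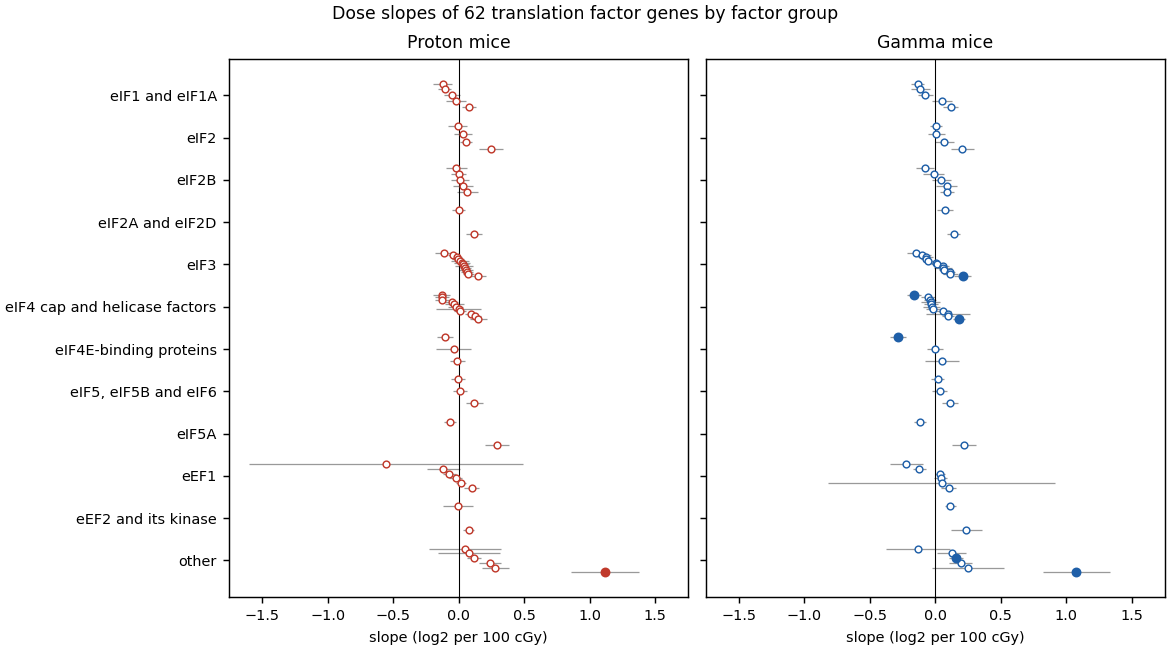
Dose slope of each gene in proton mice (left) and gamma mice (right) as log2 change per 100 cGy, by factor group. Points are fitted slopes, bars are standard errors and filled points are called slopes, 1 in the proton and 6 in the gamma panel, and most open points lie close to 0.

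The rank test asked only whether counts kept an order with dose, by an exact one-sided permutation test of Spearman's correlation over all orders of the 10 doses within a type. After gamma radiation it called increases of Eif2a, Eef1a1 and Eif3m, 4.84% of the members where 1.9% of all tested genes were called, and no decrease, where 0.411% were called. After proton radiation it called none in either direction, where 0.198% of all tested genes were called up and 0.0% down. No member was called by both tests.

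Several members stood apart at the highest doses. In 8 members the counts of all 4 mice at 150 and 200 cGy lay above those of all 16 other mice (Eif4g2, Eif4a2, Eif3a, Eif1ax, Eif5a2, Eif2c1, Eif2c2 and Eif2c3), which is 12.9% against 6.8% of all tested genes. Of these 8 members 3 are Argonaute genes, and 5 are among the 56 genes of the factor groups. In 6 members all 4 mice lay below (Eif1, Eif5a, Eef1g, Eif4h, Eif3f and Eif4a3), which is 9.68% against 2.47%. The GC content of the exons was 38.5 to 51% in the former and 49.7 to 55.4% in the latter. The same 4 libraries are those with a correlation of -0.4 to -0.351 between counts and GC content. In the other 16 it was -0.0094 to 0.274. Fibroblast markers were compared in these mice as well. Their sums overlapped, at 1509 to 2874 CPM in the 4 mice and 2579 to 4930 in the other 16. The counts of Dcn, Lum and Pdgfra also overlapped. Of the 4 markers only Col1a1, a collagen gene, did not overlap, with 4517 to 6209 counts against 9381 to 17397. All 5 smooth muscle markers overlapped, but Smtn and Myh11 did so narrowly. Smtn had 9742 to 12026 counts in the 4 mice, 9084 in the proton mouse at 75 cGy and 12114 to 17901 in the others. Myh11 had 69823 to 79989 counts against 34914 to 70142. The part of these markers in the counts of the members was not tested. When the fits were limited to 0 to 125 cGy, no member had a called slope in either type. Of all 13124 tested genes, 14 for proton and 34 for gamma radiation had one there. When the libraries were corrected for exon GC content and length, the call of Eif2c2 remained in both types and the 5 other gamma calls were lost. Calls were lost over all tested genes too. After gamma radiation 714 of them increased and 290 decreased without this correction, and 161 had a called slope with it. After proton radiation 210 increased and 21 decreased without it, and 75 had a called slope with it. The part of base composition in the other calls was not tested beyond this correction.

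**Figure D3:**
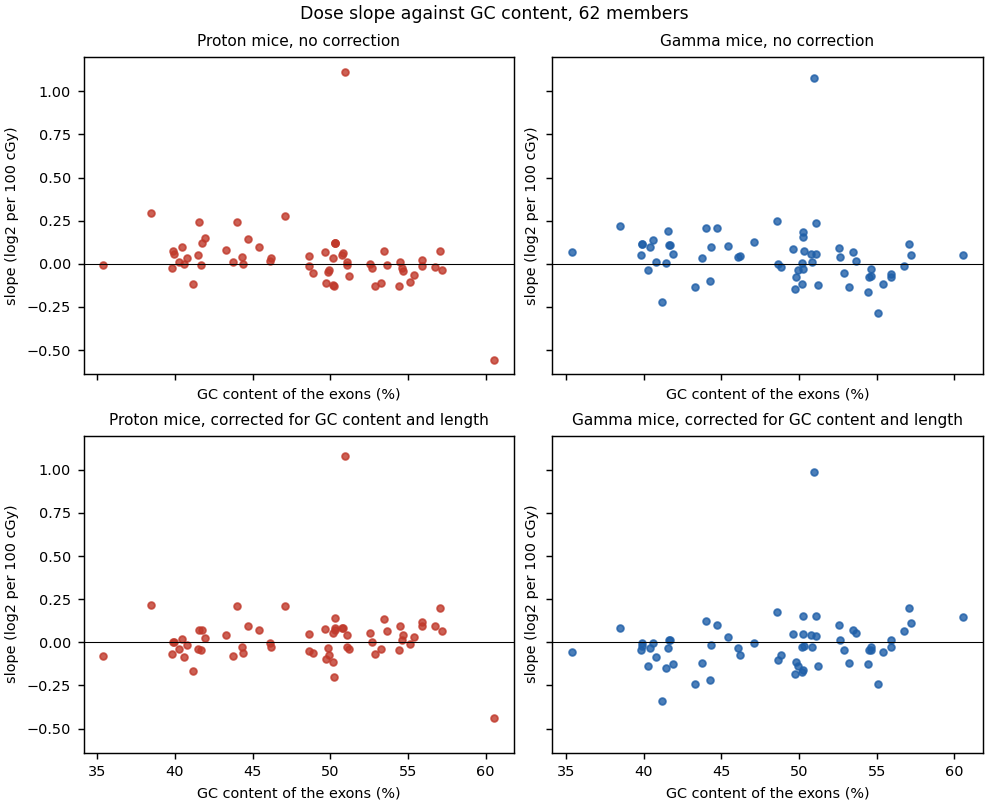
Dose slope (log2 per 100 cGy) of the 62 genes against the GC content of their exons (%), for proton (left) and gamma mice (right), as fitted (top) and with the libraries corrected for exon GC content and length (bottom). Across the 62 genes, which share the same libraries, Pearson's r was -0.26 for proton and -0.17 for gamma radiation as fitted, and 0.06 and 0.21 after correction.

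Among eIF1 and eIF1A genes no member was called in either type. Eif1ax, the X-linked gene of the scanning factor eIF1A, had the highest slopes of the 5, at 0.08 ± 0.05 for proton and 0.12 ± 0.05 for gamma radiation (adjusted p = 0.617 and 0.254). Its counts were 924 to 1068 in the 15 mice at 0 to 125 cGy other than the proton mouse at 75 cGy, which had 844, and 1076 to 1161 in the 4 mice at 150 and 200 cGy. Slopes below 0 were found for Eif1. It had 2061 to 2467 counts in the 16 mice at 0 to 125 cGy and 1955, 1984, 1884 and 1874 in the 4 mice above, with slopes of -0.11 ± 0.05 and -0.13 ± 0.05 (adjusted p = 0.351 and 0.138), and the gamma slope was called without the proton mouse at 75 cGy, at -0.15 (adjusted p = 0.0752). Eif1b, its close relative, had the lowest proton slope of the group, -0.12 ± 0.07 (adjusted p = 0.488).

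The trimeric eIF2, which carries the initiator tRNA, had 4 genes and no called slope. Eif2s3x reached the highest slope, 0.24 ± 0.09 for proton and 0.21 ± 0.09 for gamma radiation (adjusted p = 0.223 and 0.206). Its counts were 300 and 270 in the proton mice at 150 and 200 cGy and 165 to 264 in the others, and 260 and 290 in the gamma mice at these doses and 190 to 269 in the others. High and low doses thus overlapped in gamma mice only. Its Y-linked partner Eif2s3y stayed between 431 and 656 counts with slopes of -0.01 ± 0.07 and 0.07 ± 0.07. Eif2s2, the beta subunit, had the lowest gamma slope, 0.00 ± 0.05.

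Of the 5 subunits of eIF2B, the exchange factor on which phosphorylated eIF2 acts as an inhibitor, none had a called slope, and all slopes lay between -0.08 and 0.09. Eif2b1 had the highest proton slope (0.07 ± 0.08) and Eif2b4 the lowest (-0.02 ± 0.08), Eif2b5 the highest gamma slope (0.09 ± 0.06) and Eif2b2 the lowest (-0.08 ± 0.07). Eif2b4 and Eif2b5 had their highest counts, 208 and 352, in the proton mouse at 75 cGy. The other 19 mice had 128 to 171 and 243 to 308.

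Eif2a encodes eIF2A, a separate protein that can bring initiator tRNA to the ribosome without eIF2, and must not be taken for the alpha subunit of eIF2, which is Eif2s1. In gamma mice its counts were 325, 336, 363, 349 and 345 at 0 to 50 cGy and 368, 375, 407, 403 and 402 at 75 to 200 cGy. The 5 higher doses all lay above the 5 lower, with a rank correlation of 0.90 (adjusted p = 0.0525 by the exact one-sided permutation test) and a slope of 0.14 ± 0.05 (adjusted p = 0.105 by edgeR, just above the threshold). In proton mice the counts were 326 to 409 without an order, the highest at 150 and the lowest at 200 cGy, with a rank correlation of -0.09 and a slope of -0.00 ± 0.05. The gamma slope was 0.15 at 0 to 125 cGy and -0.01 after the GC correction, neither of them called. Eif2d, which can recruit tRNA at reinitiation, had slopes of 0.12 ± 0.06 and 0.07 ± 0.06 (adjusted p = 0.422 and 0.614).

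The 13 eIF3 genes, which form the largest initiation complex, had 9 slopes above 0 after proton and 8 after gamma radiation, with medians of 0.035 and 0.012. Eif3a, the scaffold subunit, was the one gene of the complex with a called slope. In gamma mice it had 1435 to 1647 counts at 0 to 125 cGy and 2035 and 2023 at 150 and 200 cGy, a slope of 0.21 ± 0.07 (adjusted p = 0.0776). Proton mice showed the same step, from 1497 to 1712 counts up to 2041 and 2037, and their slope of 0.15 ± 0.06 was not called (adjusted p = 0.332). Up to 125 cGy neither slope was called, with -0.10 for proton and 0.03 for gamma radiation at 0 to 125 cGy. The gamma call was lost without the proton mouse at 10 or 25 cGy or the gamma mouse at 0, 5, 25, 50, 150 or 200 cGy (adjusted p of 0.104 to 0.479), and after GC correction the slope was 0.10 (adjusted p = 0.699).

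Eif3m, a subunit of the PCI and MPN core, was called by the rank test in gamma mice. It had 461, 458, 469, 498 and 458 counts at 0 to 50 cGy and 516, 512, 530, 531 and 533 at 75 to 200 cGy. Every mouse from 75 cGy upward lay above every mouse below (rank correlation 0.88, adjusted p = 0.0733 by the exact one-sided permutation test), although the slope of 0.11 ± 0.04 was not called (adjusted p = 0.179) and was 0.02 after GC correction. Proton counts were 450 to 544 with a rank correlation of -0.16. Eif3f, also of that core, had the lowest slopes of the complex, -0.11 ± 0.08 and -0.15 ± 0.07 (adjusted p = 0.598 and 0.315), with 483, 519, 503 and 565 counts in the 4 mice at 150 and 200 cGy and 595 to 784 in all others. Eif3j, a loosely bound subunit, had slopes of 0.04 ± 0.07 and -0.10 ± 0.07.

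The 11 genes of cap recognition and mRNA unwinding held one increase and one decrease after gamma radiation, in the 2 cofactors of the helicase eIF4A. Eif4b, at chr15:101904204-101927603, had 1338, 1302, 1353, 1245 and 1329 counts at 0 to 50 cGy of gamma rays and 1444, 1453, 1672, 1559 and 1653 at 75 to 200 cGy. The 5 higher doses stood above the 5 lower, and the slope was 0.18 ± 0.05 (adjusted p = 0.0308). Proton mice had 1351 to 1454 counts at 0 to 125 cGy, 1489 at 150 and 1695 at 200 cGy, with a slope of 0.12 ± 0.04 that was not called (adjusted p = 0.214). Eif4b was the called factor whose gamma slope was as high at 0 to 125 cGy (0.20) as over all doses, though not called there (adjusted p = 0.522). The gamma call was lost without the gamma mouse at 200 cGy, at a slope of 0.19 (adjusted p = 0.228), and after GC correction the slope was 0.15 (adjusted p = 0.404).

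Eif4h, at chr5:135095747-135115218, encodes the cofactor that shares the RNA-binding part of eIF4B. It decreased in gamma mice, with 1320 to 1481 counts at 0 to 125 cGy and 1145 and 1128 at 150 and 200 cGy, a slope of -0.16 ± 0.05 (adjusted p = 0.0794). In proton mice it had 1294 to 1531 counts and then 1204 and 1144, with a slope of -0.13 ± 0.05 (adjusted p = 0.271). The groups of high and low doses did not overlap in either type. The gamma call was lost without the gamma mouse at 5, 10, 25, 150 or 200 cGy (adjusted p of 0.106 to 0.423), and after GC correction the slope was -0.12 (adjusted p = 0.577).

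**Figure D4:**
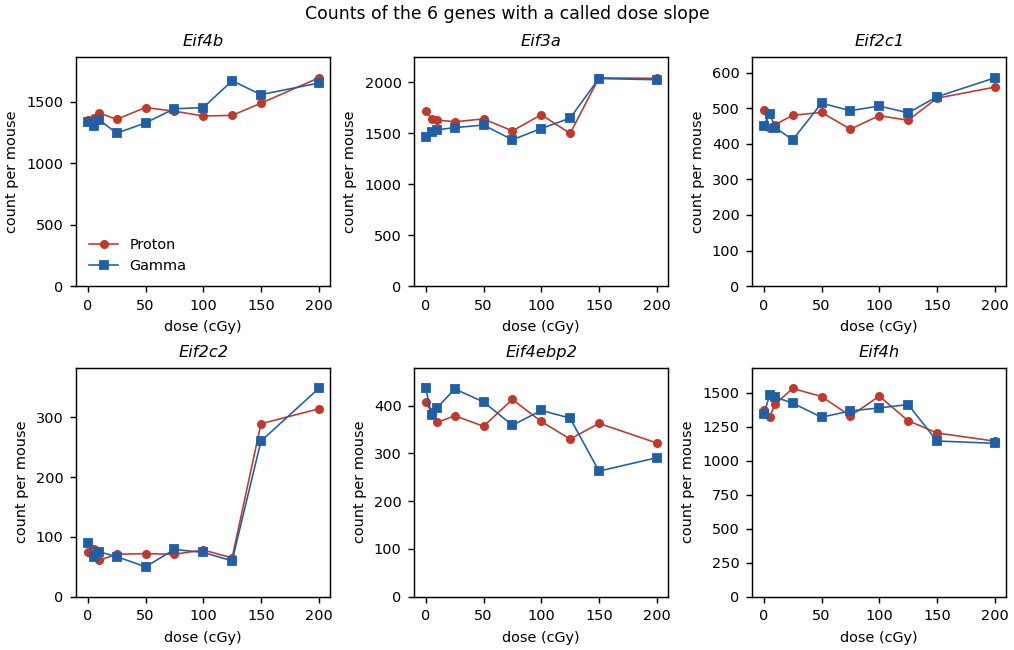
Counts per mouse against dose (cGy) for the 6 genes with a called slope, 1 point per mouse, proton as red circles and gamma as blue squares. The counts of Eif2c2 lie between 50 and 90 up to 125 cGy and between 260 and 348 above, Eif3a and Eif4h step at 150 cGy in both types, and Eif4b climbs from 75 cGy in gamma mice.

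Other genes of the eIF4 group had no called slope. Eif4g2 had the highest proton slope, 0.15 ± 0.06 (adjusted p = 0.305), with 8981 and 8651 counts in the proton mice at 150 and 200 cGy, 7735 and 8455 in the gamma mice and 6182 to 7611 in the other 16. Eif4g3, a further eIF4G, had the lowest proton slope, -0.13 ± 0.06 (adjusted p = 0.377). Eif4e, the cap-binding protein itself, was at 414 to 514 counts in all 20 mice. Its slopes were 0.01 ± 0.04 and -0.04 ± 0.05.

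Eif4ebp2, one of the repressors that hold eIF4E, had the steepest decrease of all members after gamma radiation. At chr10:60895245-60915417, it had 436, 380, 396, 435, 408, 359, 390 and 374 counts at 0 to 125 cGy of gamma rays and 263 and 291 at 150 and 200 cGy, a slope of -0.29 ± 0.06 (adjusted p = 0.016). Proton mice had 330 to 413 counts at 0 to 125 cGy, 363 at 150 and 322 at 200 cGy, and so overlapped, with a slope of -0.11 ± 0.06 (adjusted p = 0.473). Of all members this gene had the smallest p for a difference between the slopes, 0.18 ± 0.08 per 100 cGy (unadjusted p = 0.043, adjusted p = 1). The gamma call was lost without the gamma mouse at 200 cGy, at a slope of -0.31 (adjusted p = 0.14), and after GC correction, at -0.24 (adjusted p = 0.117). Its relative Eif4ebp1 had 434 counts in the proton mouse at 75 cGy, whose fat markers were the highest, and 194 to 280 in the others. What the fat contributes to this count was not tested. Its slopes were -0.04 ± 0.13 and 0.05 ± 0.13, and those of Eif4enif1, the importer of eIF4E into the nucleus, -0.01 ± 0.06 and -0.00 ± 0.06.

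Neither eIF5, eIF5B nor eIF6 had a called slope. Eif5, which makes eIF2 hydrolyse its GTP at the start codon, had 0.12 ± 0.06 and 0.11 ± 0.06 (adjusted p = 0.439 and 0.372), and Eif6, which keeps the large subunit from joining early, -0.01 ± 0.05 and 0.02 ± 0.05.

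The genes of eIF5A differed in the sign of their slopes in both types, and neither was called in the fit of all mice. Eif5a2, the scarcer one, had 109 to 182 counts in the 16 mice at 0 to 125 cGy and 218, 214, 202 and 222 in the 4 mice above. Its slopes were 0.29 ± 0.09 for proton and 0.22 ± 0.09 for gamma radiation (adjusted p = 0.141 and 0.19). Without the proton mouse at 75 cGy, which had the lowest count of 109, both slopes were called at 0.28 and 0.21 (adjusted p = 0.0385 and 0.0558), and at 0 to 125 cGy they were 0.13 and -0.03. Eif5a, the abundant one, had 1638 to 1910 counts in the 16 mice at 0 to 125 cGy and 1534, 1490, 1560 and 1538 above, with slopes of -0.07 ± 0.04 and -0.12 ± 0.04 (adjusted p = 0.594 and 0.147). Its gamma slope was called without the same mouse, at -0.13 (adjusted p = 0.0866).

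Of the 6 genes of eEF1, Eef1a1 increased in gamma mice by the rank test. At chr9:78326256-78336958 and with the highest count of all members, it had 25474, 25585, 24984, 26271 and 25631 counts at 0 to 50 cGy and 27041, 26957, 29979, 28514 and 28634 at 75 to 200 cGy. All 5 higher doses lay above all 5 lower (rank correlation 0.90, adjusted p = 0.0525 by the exact one-sided permutation test), while the slope of 0.10 ± 0.05 was not called (adjusted p = 0.346). In proton mice it was lowest, at 22533, at 125 cGy and highest, at 28081 and 28924, at 150 and 200 cGy, with a rank correlation of 0.39 and the same slope of 0.10 ± 0.05. The gamma slope was 0.03 after GC correction, and the proton slope was -0.07 at 0 to 125 cGy, neither of them called. Eef1e1, a component of the tRNA synthetase complex with 44 to 78 counts, had slopes of -0.12 ± 0.13 and -0.22 ± 0.13 (adjusted p = 0.794 and 0.381).

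Eef1a2, which replaces eEF1A1 in skeletal muscle, heart and neurons, had 220 counts in the proton mouse at 75 cGy and 2 to 31 in the other 19. That mouse had 6721 counts of the cardiac gene Myh6, where the others had 0 to 105, and all 5 cardiac markers were highest in it. Of the 7 skeletal muscle markers 1 was highest there, Ckm, which heart muscle expresses too, with 404 counts against 48 to 110. What the heart muscle transcripts contribute to its Eef1a2 count was not tested. The slopes of Eef1a2 were -0.56 ± 1.04 for proton and 0.05 ± 0.87 for gamma radiation, and -0.86 for proton radiation without that mouse (adjusted p = 0.268).

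Eef2 had no called slope and no called rank trend in either type by the edgeR fit and the rank test, but its gamma slope was called as an increase by DESeq2, by edgeR without TMM scaling and by edgeR with a surrogate variable. Proton mice had 9109 to 9733 counts at 0 to 125 cGy, 9800 at 150 and 10227 at 200 cGy, with a rank correlation of 0.87 (adjusted p = 0.255 by the exact one-sided permutation test) and a slope of 0.08 ± 0.04 (adjusted p = 0.469). In gamma mice the counts were 9048 to 9215 at 0 to 50 cGy and 9635, 9879, 10916, 9851 and 10672 at 75 to 200 cGy, with a slope of 0.11 ± 0.04 (adjusted p = 0.143). The 5 mice from 75 cGy upward and the 5 below did not overlap in gamma mice. After GC correction the slopes were 0.20 in both types, neither of them called. Eef2k, the kinase that stops eEF2, had slopes of -0.00 ± 0.12 and 0.23 ± 0.12 (adjusted p = 0.998 and 0.306), with its highest count of 1173 in the gamma mouse at 125 cGy.

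**Figure D5:**
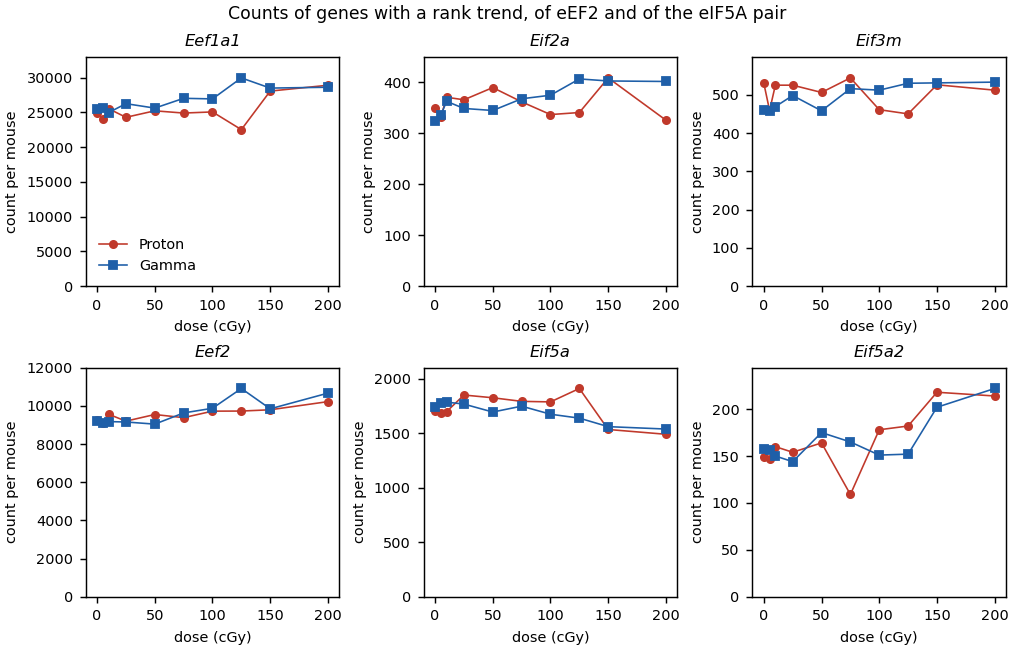
Counts per mouse against dose (cGy) for the 3 genes called by the rank test after gamma radiation, Eef1a1, Eif2a and Eif3m, and for Eef2, Eif5a and Eif5a2, proton as red circles and gamma as blue squares. In gamma mice the 5 doses from 75 cGy upward lie above the 5 lower doses for Eef1a1, Eif2a, Eif3m and Eef2, and proton mice show no such split for any of these genes.

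The Argonaute genes that carry the Eif2c symbols held the steepest slope of the list. Eif2c2, the older symbol of the Argonaute known for cleaving its targets, lies at chr15:72932055-73015377. It had 61 to 79 counts in proton mice at 0 to 125 cGy, 289 at 150 and 314 at 200 cGy, and 50 to 90 counts in gamma mice, 260 at 150 and 348 at 200 cGy. The median of the 4 mice at the highest doses was 4.22 times that of the other 16, and the ratio ranked at place 29 of 13124 genes. Slopes were 1.12 ± 0.26 for proton and 1.08 ± 0.25 for gamma radiation (adjusted p = 0.0578 and 0.0274), but below the step they were -0.04 and -0.21, and the rank correlations were 0.35 and 0.30. The 16 mice up to 125 cGy thus shared 1 level and the 4 above it another, without overlap. The proton call was lost without the proton mouse at 10, 25, 150 or 200 cGy (adjusted p of 0.101 to 0.707) and the gamma call without the gamma mouse at 150 or 200 cGy (adjusted p = 0.107 and 0.381). After GC correction the slopes were 1.08 and 0.99 (adjusted p = 0.0884 and 0.0886).

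The 3 other Argonaute genes lie next to each other on chromosome 4. Eif2c1 had 411 to 514 counts in the 16 mice at 0 to 125 cGy and 528, 559, 532 and 585 above, with slopes of 0.12 ± 0.05 for proton (adjusted p = 0.324) and 0.16 ± 0.05 for gamma radiation (adjusted p = 0.0981). The gamma call was lost in 14 of 20 fits that left out 1 mouse, those without the proton mouse at 0, 5, 10, 25, 50, 100 or 150 cGy or the gamma mouse at 0, 5, 10, 25, 75, 150 or 200 cGy, with adjusted p of 0.101 to 0.575. Eif2c3 had 230 to 309 counts and then 346, 388, 380 and 358, with slopes of 0.24 ± 0.09 and 0.19 ± 0.09 (adjusted p = 0.213 and 0.231). For both genes the 4 highest-dose mice did not overlap with the rest. Eif2c4, the scarcest of them, had 45 to 93 counts and no separation of the high doses, with slopes of 0.28 ± 0.11 and 0.12 ± 0.11 (adjusted p = 0.238 and 0.627). Of the remaining symbols, Eif4a-ps4 had 2 to 14 counts and slopes of 0.05 ± 0.27 and 0.25 ± 0.27, and Eif2c5 had 11 to 37 counts and slopes of 0.08 ± 0.24 and -0.13 ± 0.25.

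Whether the radiation types differed was tested as the difference of slopes and, separately, as the difference in level between the proton and gamma mouse of each dose. No member was called in either comparison, and neither was any other gene, 0.0% of those tested. At an unadjusted p under 0.05 the slopes of 1 member differed, 1.94% of all tested genes being under it, and the levels of 5 members, against 7.86%. DESeq2 called no member in either comparison, and for the level it called 13 other genes higher and 37 lower in proton mice. Without both mice at 75 cGy edgeR called 11 genes higher and 9 lower, no member among them. After Eif4ebp2, the smallest p for the slopes were those of Eif2a (-0.14 ± 0.07, unadjusted p = 0.0528), Eif3m (-0.11 ± 0.06, 0.0866), Eef2k (-0.24 ± 0.17, 0.168) and Eif3j (0.14 ± 0.10, 0.171), each given as the proton minus the gamma slope. For Eif2a and Eif3m a difference between the types is therefore not shown, although the rank test called them in gamma mice and not in proton mice. The level difference with the smallest p was that of Eef1d, the exchange factor of eEF1A, 0.14 lower on the log2 scale in proton mice (-0.14 ± 0.05, unadjusted p = 0.0132, adjusted p = 0.476).

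The regulators and partners of the factors were taken from a list of 39 genes, all of which passed the count minimum. It was drawn up with earlier results of these data known. It holds Eif2ak2 and Ddx3x, which the study lists among the genes responsive to both radiation types. The calls among the 39 therefore cannot show whether partners are called more often than other genes. After proton radiation 3 of the 39 increased and none decreased, and after gamma radiation 4 increased and none decreased, where 1.6% and 5.44% of all tested genes increased. Eif2ak2, the kinase PKR that responds to double-stranded RNA, had 79 to 127 counts in proton mice at 0 to 125 cGy, 172 at 150 and 136 at 200 cGy, with a slope of 0.43 ± 0.09 (adjusted p = 0.0368), and in gamma mice 69 to 108 counts and then 156 and 142, with a slope of 0.47 ± 0.09 (adjusted p = 0.0115). It was the one partner called after GC correction in both types (adjusted p = 0.0683 and 0.0627). Eif2ak4, the amino acid sensor GCN2, had slopes of 0.32 ± 0.08 and 0.23 ± 0.08 (adjusted p = 0.0623 and 0.0899). The kinases Eif2ak1 and Eif2ak3 and the phosphatase subunits Ppp1r15a and Ppp1r15b had no called slope.

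Ddx3x, a helicase that works with eIF4F on structured leaders, increased in both types, from 2748 to 3566 counts at 0 to 125 cGy of protons to 4262 and 3862, and from 2448 to 3579 counts to 4279 and 4480 after gamma radiation. Its slopes were 0.24 ± 0.06 and 0.39 ± 0.05 (adjusted p = 0.0537 and 0.00112), and 0.17 and 0.26 after GC correction, where neither was called. Tsc1, an inhibitor of mTORC1, increased after gamma radiation alone by the threshold, at 0.33 ± 0.07 against 0.15 ± 0.07 for proton radiation (adjusted p = 0.0183 and 0.404), and the difference of the slopes had an unadjusted p of 0.0885. Its counts were 260 and 246 in the proton mice at 150 and 200 cGy, 308 and 299 in the gamma mice, and 177 to 232 in all others. After GC correction its slopes were 0.06 for proton and 0.18 for gamma radiation, neither of them called. None of the 9 other genes of the mTORC1 axis had a called slope, nor had the genes of hypusine and diphthamide synthesis, of termination and recycling or of selenocysteine delivery. In Eif2ak2, Eif2ak4, Ddx3x and Tsc1 the counts of all 4 mice at 150 and 200 cGy lay above the other 16, and in 1 partner below. Of all tested genes 6.8% lay above and 2.47% below. At 0 to 125 cGy no partner had a called slope in either type, where 14 and 34 of all tested genes had one. By the rank test 2 of the 39 partners were called up after proton and 4 after gamma radiation, and none down. Of all tested genes 0.198% and 1.9% were called up. The gamma calls included Ppp1r15b and Mtor, with rank correlations of 0.92 and 0.85 in gamma mice and no called slope.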

How the data were processed

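The authors aligned paired reads of aortic polyadenylated RNA to mm9 with STAR 2.5.2a after base calling with CASAVA 1.8.1, and resampled the libraries to a common size with PORT, and deposited counts of sense-strand reads for each gene. All 21078 gene identifiers were found in GENCODE M1, from which coordinates, exon lengths and base composition were taken. The genes averaging 5 counts or more were tested with edgeR 4.0.16 in R 4.3.3 (TMM, robust quasi-likelihood fits), with an intercept and a dose slope per radiation type, and for the level difference with dose as a block. The Benjamini-Hochberg adjustment ran over all tested genes, and 0.1 was the threshold. Rank trends were tested with numpy 2.4.6 and scipy 1.17.1. The alternatives were DESeq2 1.42.0, a surrogate variable from sva 3.50.0, other filters, scalings, dose scales and dose ranges, a GC content correction and the omission of single mice. The procedures were tested on simulated data.

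Genes were named with values where a test called them, where they had the lowest or highest slope of their factor group or the smallest p-values of a comparison, where they were the most abundant or paralogous to one another, or where the study's supplementary lists held them. The members and all gene lists were chosen with earlier results of these data known. Samples were grouped by the radiation type and dose in the labels. Each dose had 1 mouse of a type, and the slope p-values measure the spread of all 20 mice around both lines.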

Additional observations from a re-analysis of the deposited data

Results flagged for a closer look

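Among the 124 combinations of gene and radiation type, 14 held a mouse whose count lay apart from the 9 others of its type by Dixon's test, of which chance alone gives about 1 in 20. The proton mouse at 75 cGy gave 8 of them. Its counts were 220 for Eef1a2 (next highest 31), 208 for Eif2b4 (156), 352 for Eif2b5 (303), 889 for Eif3l (701), 445 for Eif4e3 (221), 434 for Eif4ebp1 (249), 3278 for Eif4g1 (2809) and 1660 for Eif5 (1401). This is the mouse with the highest summed markers of brown fat, white fat and cardiac muscle and the lowest of smooth muscle, and their part in these counts was not tested.

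The proton mouse at 200 cGy stood apart with 93 counts of Eif2c4 (next highest 67), 903 of Eif3e (817) and 1695 of Eif4b (1489). Eif2d stood apart in the proton mouse at 125 cGy with 274 counts (228) and in the gamma mouse at 150 cGy with 247 (222). The gamma mouse at 200 cGy had 1573 counts of Eif5 (1375).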

How the results depend on the processing

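No member had a called difference in slope or level between the radiation types under any alternative run, which includes 0 members for the slope difference with dose as a replicate block. No member decreased after proton radiation in any of them. The number of calls over all tested genes moved between the fits as well. In the main fit it was 210 increases after proton radiation and 714 increases and 290 decreases after gamma radiation. Against 1 increase after proton radiation and 4 increases and 2 decreases after gamma radiation among the members, the counts were as follows. DESeq2 gave 5 increases and 5 decreases after gamma radiation, library sizes without TMM 6 increases and 2 decreases, and a mean count of 50 or more 5 increases and 3 decreases. Over all tested genes DESeq2 gave 685 and 449, and library sizes without TMM 857 and 258. A mean count of 50 or more gave 714 and 412 of 9817 genes. Without a filter on low counts there were 2 increases and 1 decrease after gamma radiation, and 463 and 155 over all 21078 genes. The rank of the dose gave 0 increases after proton radiation and 1 increase and 1 decrease after gamma radiation, and log2(dose + 1) gave 0, 0 and 0. Over all tested genes the rank of the dose gave 40, 335 and 145, and log2(dose + 1) gave 22, 38 and 7. The GC correction left 1 increase and 0 decreases after gamma radiation, and a surrogate variable gave 3 increases after proton and 10 increases and 3 decreases after gamma radiation. Over all tested genes the GC correction left 106 increases and 55 decreases after gamma radiation. The surrogate variable gave 525 increases after proton and 1218 increases and 562 decreases after gamma radiation. At 0 to 125 cGy there were 0, 0 and 0, where fewer mice entered, and 13, 29 and 5 over all tested genes. Without the proton mouse at 75 cGy there were 2 increases after proton radiation and 5 increases and 4 decreases after gamma radiation. Over all tested genes there were 394, 941 and 642 in that fit. A threshold of 0.05 left 0 increases after proton radiation and 2 increases and 1 decrease after gamma radiation.

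The 3 increases by the rank test after gamma radiation became 0 at a threshold of 0.05, 0 by the number of steps between doses, 0 at 0 to 125 cGy 2 on TMM-scaled CPM and 7 by the slope of a fitted line, which also gave 1 decrease. With each mouse left out in turn, there were 0 to 3 increases after proton radiation, 0 to 5 increases after gamma radiation and 0 to 4 decreases after gamma radiation. Over all tested genes these ranges were 28 to 547, 54 to 941 and 23 to 642. The slopes of Eif2c2 turned to -0.042 for proton and -0.21 for gamma radiation at 0 to 125 cGy, without the mice in which its counts were high. For the other changes the cause was not tested. With 1 mouse per dose and type, a change at a single dose cannot be separated from a difference between mice.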
